A study of Homo sapiens with 10 samples.

Results

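The genes described here are 9 BH3-only members of the BCL2 family: BCL2L11 (BIM), BMF, BID, BIK, BAD, BBC3 (PUMA), PMAIP1 (NOXA), HRK and BNIP3L (NIX). They were taken by symbol from the deposited gene table, and all 9 were among its 27142 genes. The table covers 4 RNA-seq libraries of parental 697 cells, a human pre-B leukaemia line cultured with fetal bovine serum. Of these, 2 were labelled as controls and 2 came from cells given the phorbol ester TPA (12-O-tetradecanoylphorbol-13-acetate), an activator of protein kinase C, at 0.5 µg/ml. The exposure is labelled only as a range of 0 to 24 h. No label ties the replicates to separate cultures, and p-values here measure only the spread between these libraries, which may be technical.

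BH3-only proteins are the sensors of the intrinsic pathway of apoptosis. Through a short helix, the BH3 domain, they occupy the groove of survival proteins such as BCL2, BCL-XL and MCL1, and some of them also switch on the pore-forming effectors BAX and BAK. BIM and BMF set the survival of B lymphocytes and their precursors, PUMA and NOXA are textbook targets of p53, BID links death receptors to mitochondria, BAD is held inactive by phosphorylation, and NIX acts mainly in the removal of mitochondria.

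Values are in RPKM, reads scaled to gene length and library size, so levels of different genes can be set side by side. Summed RPKM ran from 349438 to 388846 per library. Read totals are unknown. From the spacing of the lowest values, the other 3 libraries had 91.3% to 97.7% of the depth of control replicate 1. The line's label was checked against marker genes. All 10 B-lineage markers were expressed, 4 of them higher and 6 lower with TPA. CD79A, a B-cell receptor subunit gene, rose from 208 ± 13.2 to 858 ± 49.6 RPKM. IGLL1 and DNTT, which mark early B-cell precursors, were lower: IGLL1 fell from 457 ± 3.14 to 8.97 ± 5.81 RPKM and DNTT from 789 ± 19.5 to 26.0 ± 16.1 RPKM. The summed level of 8 T-cell markers was at most 0.044 RPKM, with CD3D, CD3E, CD8B and TRAT1 listed at 0 in every library, and that of 8 erythroid markers ran from 0.364 to 0.682 RPKM. The 8 myeloid markers summed to 0.673 and 1.04 RPKM in control and 3.17 and 3.96 RPKM with TPA, most of it CSF1R, while MPO and ELANE were listed at 0 with TPA. The part of these marker changes in the differences of BH3-only genes was not tested. Of 10 reference genes 1 rose, 6 fell (HPRT1 and TBP with the smallest p) and 3 did not pass.

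TPA and control libraries differed at most BH3-only genes, in both directions. BCL2L11, BMF, BIK and BBC3 rose, and BID, PMAIP1 and BAD fell. BNIP3L did not pass the test, and HRK, under 1 RPKM in every library, did not reach the filter of 1 RPKM in 2 libraries and was not tested. A gene is called here at a Benjamini-Hochberg adjusted p under 0.05 in limma on log2(RPKM + 1), over 12159 genes tested. By that rule 58.2% of all genes tested were called, 28.4% higher and 29.8% lower, and the 7 of 8 tested members have to be read against that share. BMF and BIK reached the filter only with TPA and so had to differ. Of the 6 members at the filter in both groups, 2 rose, 3 fell and 1 did not pass. Their median difference was -0.24 on the log2 scale, against 0.63 for all 8 and -0.02 for all genes tested. Values of control and TPA libraries were fully separate in 7 of the 8 and in 79.8% of all genes tested. Where 1 control is left out below, a lost call can come from a larger standard error, without a changed difference.

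**Figure D1:**
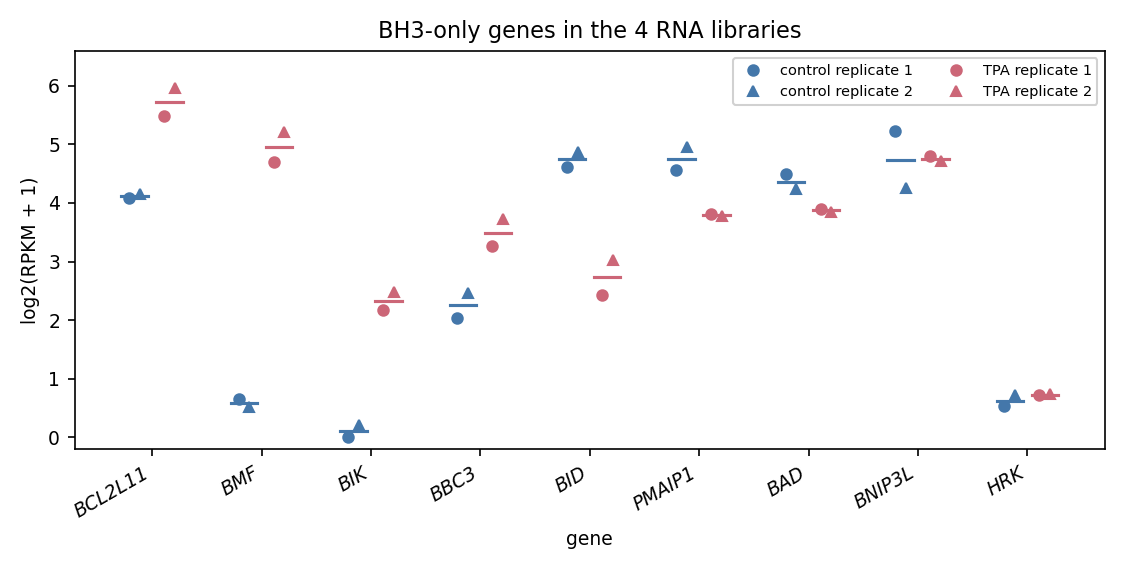
Level of each BH3-only gene as log2(RPKM + 1) on the vertical axis, with 1 point per library and a bar at the group mean. The TPA points lie above both controls for BCL2L11, BMF, BIK and BBC3 and below them for BID, PMAIP1 and BAD, while the control replicates of BNIP3L lie apart at 36.4 and 18.1 RPKM.

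The stretches of 250 bases before the start of BCL2L11 and BMF, which rose, and of BID and PMAIP1, which fell, are shown because these 4 genes had the largest changes in mean RPKM in their direction. They are RefSeq sequences of GRCh38.p14, read 5′ to 3′ on the gene's strand and ending at the base before the most upstream start in the table. Capitals mark every match, on either strand, to the letters searched: TGTTTAC (a FOXO site), TGANTCA (AP-1), GCGTGGGCG (EGR), CACGTG (an E-box), ACGTG (a hypoxia core, which lies inside the E-box), GGGCGG (a GC box) and CCAAT.
BCL2L11, chr2:111120664-111120913, plus strand: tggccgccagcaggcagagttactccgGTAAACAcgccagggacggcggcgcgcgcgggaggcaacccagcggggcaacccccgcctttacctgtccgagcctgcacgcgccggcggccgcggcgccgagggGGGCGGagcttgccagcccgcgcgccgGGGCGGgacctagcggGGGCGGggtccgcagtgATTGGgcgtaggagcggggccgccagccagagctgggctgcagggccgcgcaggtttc
BMF, chr15:40108880-40109129, minus strand: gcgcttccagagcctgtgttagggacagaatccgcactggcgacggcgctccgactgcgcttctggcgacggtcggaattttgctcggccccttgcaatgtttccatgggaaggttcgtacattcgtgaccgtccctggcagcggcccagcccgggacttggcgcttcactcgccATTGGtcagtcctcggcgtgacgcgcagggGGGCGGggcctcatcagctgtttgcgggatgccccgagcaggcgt
BID, chr22:17774666-17774915, minus strand: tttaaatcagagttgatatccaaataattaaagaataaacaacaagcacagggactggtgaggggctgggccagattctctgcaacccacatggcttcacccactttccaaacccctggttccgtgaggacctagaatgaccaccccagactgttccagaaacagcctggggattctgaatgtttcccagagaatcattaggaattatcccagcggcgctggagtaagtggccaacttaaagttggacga
PMAIP1, chr18:59899746-59899995, plus strand: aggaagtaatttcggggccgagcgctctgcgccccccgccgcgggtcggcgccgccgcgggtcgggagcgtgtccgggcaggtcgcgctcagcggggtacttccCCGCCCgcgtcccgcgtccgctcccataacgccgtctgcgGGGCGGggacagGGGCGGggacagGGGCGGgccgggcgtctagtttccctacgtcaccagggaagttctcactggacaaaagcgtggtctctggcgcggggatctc
The BCL2L11 window held 1 copy of the FOXO letters, as GTAAACA, together with 3 GC boxes and 1 CCAAT box on the reverse strand. The FOXO letters occurred in 2.98% of the 35116 windows of this length in the table, and in no other member's window. The BMF window had 1 GC box and 1 reverse CCAAT box, PMAIP1 had 4 GC boxes, and the BID window before its most upstream start had no match. GC boxes were found in 42.6% and CCAAT boxes in 32% of all windows. Windows before more downstream BID starts held 1 to 4 GC boxes and, for 2 of them, an E-box, so a match depends on which start is taken. Of the other members, BBC3 had the AP-1 letters (6.57% of all windows) and an E-box (6.34%) with the hypoxia core (18.5%), as well as a CCAAT box, while BAD and HRK had only GC or CCAAT boxes. No member held the EGR letters. BIK and BNIP3L were not searched. A match is a description of letters, not evidence of binding.

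BCL2L11 encodes BIM, which binds every survival protein of the family and can activate BAX and BAK directly. It measured 15.9 and 16.9 RPKM in the control libraries and 43.8 and 61.2 RPKM with TPA. Both TPA libraries were above both controls, and the TPA replicates differed from each other more than the controls did. The mean rose 3.21-fold, from 16.4 ± 0.686 to 52.5 ± 12.3 RPKM (mean ± SD, n = 2 libraries per group), with a log2 difference of 1.60 (SE 0.176, limma adjusted p = 1.32e-04). The table gives 1 value per gene, so the long and short forms of BIM made by splicing cannot be told apart. Each library also pools many cells, so fewer cells with the transcript and less transcript per cell cannot be told apart for any gene here.

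BMF, a relative of BIM that is tethered to actin-linked myosin motors, moved from near the bottom of the group to near its top. Its values were 0.578 and 0.429 RPKM in control and 24.9 and 36.2 RPKM with TPA, with no overlap. The log2 difference was 4.37 (SE 0.185, limma adjusted p = 1.01e-06), and 99.5% of all genes tested had a lower one. The ratio of the means was 60.8, though it rests on control values under 1 RPKM. Dynein light chains hold BIM (DYNLL1) and BMF (DYNLL2) on the cytoskeleton. DYNLL1 measured 182 and 222 RPKM in control and 123 and 169 RPKM with TPA and did not pass (adjusted p = 0.0575). DYNLL2 fell from 54.7 ± 1.37 to 36.3 ± 5.23 RPKM (limma adjusted p = 0.00983). Without control replicate 2 DYNLL2 no longer passed, though its log2 difference hardly changed (-0.56, against -0.58). The call of DYNLL1 was not stable. DYNLL1 did pass without control replicate 1 (log2 difference -0.62), without TPA replicate 2 (-0.70) and after median-of-ratios scaling (-0.50). It also passed with the filter at 5 RPKM (limma adjusted p = 0.0455) and with the replicate number as a block (limma adjusted p = 0.00246).

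BIK, a BH3-only protein of the endoplasmic reticulum, was listed at 0 and 0.162 RPKM in the controls and at 3.49 and 4.61 RPKM with TPA. It was thus close to absent without TPA and low with it. Its log2 difference was 2.22 (SE 0.158, limma adjusted p = 1.25e-05). That value rose to 4.67 with a pseudocount of 0.1, since the pseudocount of 1 holds down the difference of a gene this low.

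BBC3 encodes PUMA, a strong killer that p53 and FOXO3 are both known to induce. It measured 3.09 and 4.54 RPKM in control and 8.57 and 12.3 RPKM with TPA. All values with TPA were above both controls. The mean rose 2.73-fold, with a log2 difference of 1.24 (SE 0.205, limma adjusted p = 0.00121). BBC3 thus rose while PMAIP1, likewise a textbook target of p53, fell.

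BID showed the largest fall among the members. It is inert until caspase-8 or granzyme B cuts it. The controls measured 23.6 and 28.2 RPKM and the TPA libraries 4.40 and 7.15 RPKM. The level with TPA was 4.49-fold lower (log2 difference -2.01, SE 0.205, limma adjusted p = 8.73e-05), and only 3.14% of all genes tested had a lower difference. Of 3 genes of BID cleavage and docking that reached the filter in both groups, 2 rose and 1 did not pass. GZMB, which encodes granzyme B, was listed at 0 in both controls and at 8.26 and 5.71 RPKM with TPA, in libraries with almost no T-cell transcripts. It reached the filter only with TPA and so had to differ. CASP10 rose from 1.29 ± 0.0905 to 3.08 ± 0.206 RPKM. CASP8, named after its values were seen, rose from 11.5 ± 1.59 to 19.0 ± 3.14 RPKM, but did not pass without control replicate 1 (log2 difference 0.55, adjusted p = 0.0539, the highest of its 13 alternatives, which began at 5.15e-04). MTCH2, the mitochondrial receptor for cut BID, had 54.8 and 61.1 RPKM in control and 43.2 and 47.1 RPKM with TPA and did not pass (adjusted p = 0.0569), although it did after median-of-ratios scaling (log2 difference -0.38).

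PMAIP1 encodes NOXA, which neutralises MCL1. It measured 22.5 and 30.1 RPKM in control and 13.1 and 12.7 RPKM with TPA. The TPA replicates were nearly equal and both were below the lower control. PMAIP1 fell 2.04-fold, with a log2 difference of -0.96 (SE 0.163, limma adjusted p = 0.00140). FBXW7, a ubiquitin ligase subunit that marks MCL1 for destruction, fell from 61.1 ± 1.75 to 16.5 ± 2.46 RPKM. The other 4 genes of MCL1 and NOXA turnover, the ligase gene HUWE1 among them (11.2 and 10.9 RPKM in control, 14.6 and 9.93 RPKM with TPA), did not pass.

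BAD, which binds BCL2 and BCL-XL when it is not phosphorylated, had the smallest change that was called. Its values were 21.4 and 17.9 RPKM in control and 14.0 and 13.3 RPKM with TPA. The groups did not overlap, and BAD fell 1.44-fold (log2 difference -0.49, SE 0.142, limma adjusted p = 0.0183). Without control replicate 1 the adjusted p was 0.218 (log2 difference -0.37), and without TPA replicate 2 it was 0.0640 (-0.46), within a range of 0.00333 to 0.218 over 13 alternatives. BAD overlaps GPR137 in the RefSeq gene table, and no source used here says whether strand was used in counting. GPR137 rose from 6.66 ± 0.787 to 9.62 ± 0.293 RPKM (log2 difference 0.47, limma adjusted p = 0.0181). That call was lost without control replicate 2 (0.37) and without TPA replicate 2 (0.45).

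Of 6 tested YWHA genes, which encode the 14-3-3 proteins that sequester phosphorylated BAD, 4 fell and the other 2 did not pass. Of all genes tested 29.8% were called lower. The median log2 difference of the YWHA genes was -0.44, against -0.02 for all genes tested. The 10 reference genes, YWHAZ among them, had a lower median of -0.54, so such a fall was not particular to the YWHA genes. YWHAH fell from 93.6 ± 10.1 to 35.1 ± 4.90 RPKM and YWHAG from 143 ± 2.78 to 97.7 ± 3.91 RPKM. YWHAG did not pass without control replicate 1 or 2, though its log2 difference hardly changed (-0.56 and -0.52, against -0.54). Its standard error was larger there (0.260 and 0.256, against 0.131). Of 13 kinases and phosphatases that act on BAD, 3 rose, 4 fell and 6 did not pass. The kinase gene AKT1 fell from 88.1 ± 2.78 to 46.4 ± 5.14 RPKM. The calcineurin catalytic subunits PPP3CA and PPP3CB, which remove phosphate from BAD, rose from 17.8 ± 0.670 to 55.5 ± 4.50 RPKM and from 13.9 ± 0.989 to 22.5 ± 0.697 RPKM. Of the other calcineurin genes listed, PPP3R1 fell from 45.3 ± 0.351 to 33.1 ± 1.33 RPKM. PPP3CC did not pass (26.5 ± 1.30 and 22.9 ± 3.20 RPKM).

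BIM is phosphorylated by ERK and RSK kinases and then degraded. Of 8 tested genes of that route 3 rose, 2 fell and 3 did not pass. RPS6KA1, the RSK1 gene, rose from 30.6 ± 1.63 to 131 ± 5.86 RPKM, and RPS6KA3, the RSK2 gene, from 14.7 ± 1.45 to 24.8 ± 1.16 RPKM. The ERK1 gene MAPK3 fell from 32.3 ± 3.76 to 20.4 ± 1.23 RPKM, but did not pass without control replicate 1 (log2 difference -0.51, against -0.63). These are transcript levels, and no protein or phosphorylation was measured.

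BNIP3L was the most abundant member in control by its mean, yet its controls disagreed. It measured 36.4 and 18.1 RPKM in control and 26.8 and 25.2 RPKM with TPA. Both TPA values fell between the controls, and the log2 difference was 0.01 with a 95% interval from -0.63 to 0.65 (limma adjusted p = 0.971). The interval does not reach the differences of BBC3 or PMAIP1 and does include one the size of that of BAD. The ratio of control replicate 1 to replicate 2 was 2.02, and 99.7% of all genes tested had a lower difference between the controls. Targets of the hypoxia response, to which BNIP3L belongs as background knowledge, moved the same way: all 12 tested on the list, its relative BNIP3 included, were higher in control replicate 1, against 38.9% of all genes tested, with a median log2 difference of 0.56 between the controls. Their part in the result for BNIP3L was not tested. Without control replicate 1 the BNIP3L difference was 0.50 (adjusted p = 0.0849) and without control replicate 2 it was -0.47 (adjusted p = 0.11), within adjusted p-values of 0.0849 to 0.986 over 13 alternatives.

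**Figure D2:**
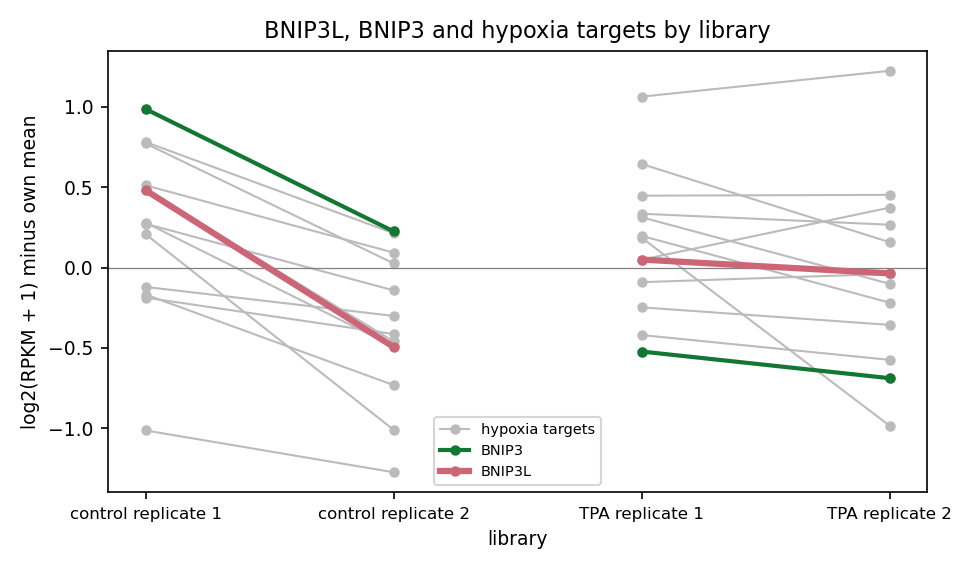
Level of BNIP3L, BNIP3 and the other tested hypoxia targets in each library, as log2(RPKM + 1) minus the gene's own mean over the 4 libraries. Every line falls from control replicate 1 to control replicate 2, BNIP3L from 36.4 to 18.1 RPKM, and BNIP3 is lower with TPA than in either control.

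BNIP3, the closest relative of BNIP3L and likewise a mitophagy receptor, did fall. It measured 17.7 and 10.1 RPKM in control and 5.59 and 4.88 RPKM with TPA (log2 difference -1.21, SE 0.233, limma adjusted p = 0.00272). Of 11 mitophagy genes at the filter in both groups, 6 rose, 2 fell and 3 did not pass. OPTN, which reached the filter only with TPA, and SQSTM1, both autophagy receptor genes, rose from 0.446 ± 0.0325 to 5.95 ± 0.648 RPKM and from 26.9 ± 1.59 to 46.7 ± 0.460 RPKM, and the receptor gene CALCOCO2 fell from 23.8 ± 4.21 to 13.0 ± 2.81 RPKM. Of the other genes for proteins with a BH3-like motif, BECN1, the autophagy initiator, rose from 24.7 ± 0.891 to 35.1 ± 1.49 RPKM (limma adjusted p = 0.0123). BECN1 did not pass without control replicate 1 or 2, though its log2 difference hardly changed (0.46 and 0.53, against 0.49). BNIP1 did not pass (9.06 ± 0.421 and 6.98 ± 1.40 RPKM, limma adjusted p = 0.0927). It did without TPA replicate 2 (log2 difference -0.52) and after median-of-ratios scaling (-0.37). It also passed with the replicate number as a block (limma adjusted p = 0.0316). BCL2L14 was at 0.045 RPKM or less.

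HRK, known mainly from neurons, was the least abundant member with TPA. It had 0.441 and 0.644 RPKM in control and 0.640 and 0.670 RPKM with TPA, and the groups overlapped. With no filter on low values, where 36% of 20115 genes were called, its log2 difference was 0.10 (SE 0.0838, limma adjusted p = 0.408).

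The order of the levels was rearranged. In control BNIP3L, PMAIP1 and BID led with means of 27.2, 26.3 and 25.9 RPKM, and their replicate ranges overlapped, so they cannot be ranked. BAD (19.7 RPKM) and BCL2L11 (16.4 RPKM) followed, then BBC3 at 3.81 RPKM. The range of BAD lay below those of PMAIP1 and BID and above that of BCL2L11, but overlapped that of BNIP3L. HRK and BMF, at 0.542 and 0.504 RPKM, overlapped, and BIK was last. With TPA BCL2L11 led at 52.5 RPKM. BMF (30.6 RPKM) and BNIP3L (26.0 RPKM) came next with overlapping ranges, followed by BAD, PMAIP1 and BBC3 at 13.7, 12.9 and 10.4 RPKM. BID and BIK overlapped at 5.77 and 4.05 RPKM, and HRK was last.

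The summed level of the 9 genes was 124 and 117 RPKM in control and 140 and 173 RPKM with TPA. BCL2L11 made up 12.8% and 14.4% of it in control and 31.3% and 35.3% with TPA. BMF went from under 0.5% in each control to 17.9% and 20.9%, and BID from 19% and 24.1% to 3.15% and 4.12%. The TPA replicates were not equal in level: 5 of the 8 tested members were higher in TPA replicate 2, as were 73.1% of all genes tested.

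**Figure D3:**
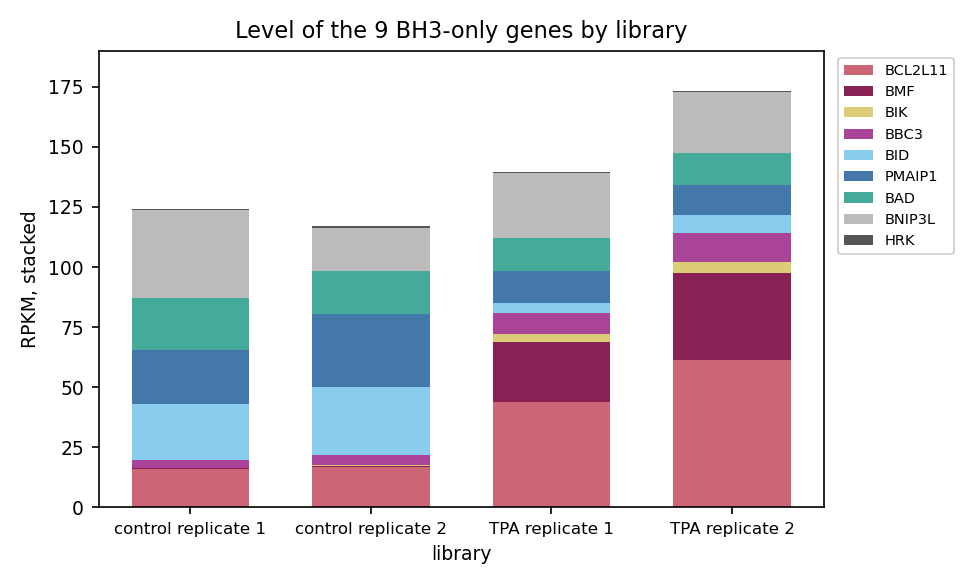
RPKM of the 9 BH3-only genes stacked for each library, summing to the height of each bar (124 and 117 RPKM in control, 140 and 173 RPKM with TPA). The BCL2L11 and BMF segments are taller in both TPA libraries and the BID and PMAIP1 segments shorter.

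The proteins that BH3-only members bind were read in the same fit. Of 4 survival genes at the filter in both groups, 2 rose, 1 fell and 1 did not pass. BCL2 fell from 22.7 ± 0.175 to 8.88 ± 1.46 RPKM (log2 difference -1.27, SE 0.148, limma adjusted p = 1.80e-04). MCL1 rose from 62.9 ± 3.02 to 106 ± 3.70 RPKM (log2 difference 0.75, limma adjusted p = 0.00174), and BCL2L1, the BCL-XL gene, from 26.9 ± 1.07 to 43.3 ± 5.17 RPKM (0.66, limma adjusted p = 0.00461). BCL2A1 was listed at 0 in both controls and at 2.86 and 2.35 RPKM with TPA, and reached the filter only there. BCL2L2 did not pass, at 4.14 ± 0.197 and 3.97 ± 0.0509 RPKM, and BCL2L10 reached at most 0.038 RPKM. Of the pore effectors, BAX measured 64.8 and 89.8 RPKM in control and 39.1 and 53.8 RPKM with TPA and fell (limma adjusted p = 0.0177). BAX did not pass without control replicate 2 (log2 difference -0.49), without TPA replicate 1 (-0.50) or with no filter on low values (adjusted p = 0.0919), within a range of 1.91e-04 to 0.111. BAK1 rose from 8.83 ± 0.254 to 13.9 ± 0.948 RPKM (limma adjusted p = 0.00507), and BOK was at 0.033 RPKM or less.

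**Figure D4:**
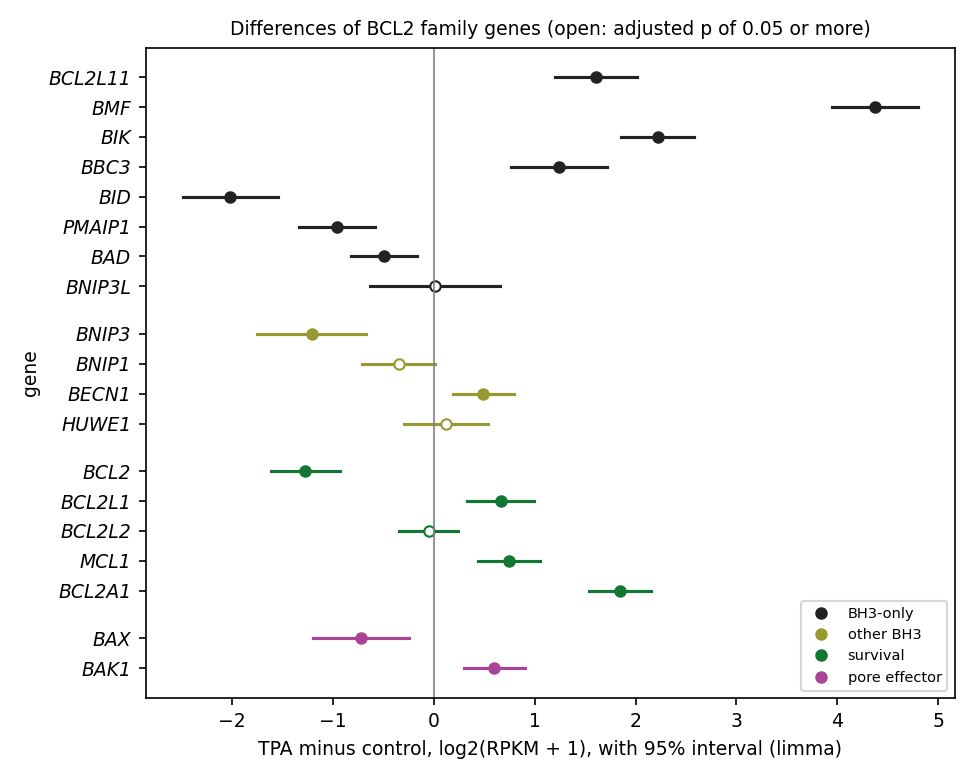
TPA minus control difference on the log2(RPKM + 1) scale, with its 95% interval from limma, for tested genes of the BCL2 family grouped by role. Filled points have an adjusted p under 0.05, and the differences of the BH3-only genes run from -2.01 for BID to 4.37 for BMF.

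For 2 pairs whose proteins bind each other, chosen after their values were seen, the levels were set against each other within each library. The difference of BCL2 minus BCL2L11 in log2(RPKM + 1) was 0.48 and 0.42 in control and -2.34 and -2.51 with TPA. BCL2 thus had the higher RPKM in both controls and the lower in both TPA libraries. Each RPKM rests on the length taken for that gene, so the small gap in control does not settle which transcript was more abundant. BCL2 does not stand for all survival genes. The summed level of the 6 listed was 115 and 118 RPKM in control and 163 and 167 RPKM with TPA. MCL1 exceeded PMAIP1 in every library, by 1.39 and 1.09 in control and by 2.96 and 2.93 with TPA. No exact test of 2 libraries against 2 can pass the threshold of 0.05, and none was run on these differences.

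Downstream of the effectors, of 10 tested apoptosome, caspase and inhibitor genes 3 rose, 2 fell and 5 did not pass. The caspase gene CASP9 rose from 2.38 ± 0.255 to 10.7 ± 1.09 RPKM. CYCS, the gene of cytochrome c, fell from 45.0 ± 7.24 to 15.3 ± 0.0969 RPKM, as did HTRA2, the gene of a mitochondrial protease (-0.40 on the log2 scale), although HTRA2 did not pass without control replicate 1 (-0.44), control replicate 2 (-0.35) or TPA replicate 1 (-0.30). The inhibitor gene BIRC2 rose from 11.7 ± 2.03 to 40.9 ± 8.81 RPKM.

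Regulators known to act on BH3-only genes moved both ways: of 19 tested, 6 were called higher, 7 lower and 6 neither. They are transcription factors, apart from the microRNA host transcript MIR17HG, which was called lower. The 3 FOXO genes, whose products are known to induce BCL2L11 and BBC3, rose. FOXO1 went from 7.19 ± 1.17 to 15.7 ± 2.65 RPKM, FOXO3 from 1.49 ± 0.0735 to 4.65 ± 0.743 RPKM and FOXO4 from 2.43 ± 0.0580 to 8.58 ± 2.47 RPKM. Of 9 tested FOXO targets, 7 were called higher and 2 were not called, where 28.4% of all genes tested were called higher. The median log2 difference was 1.26, against -0.02 for all genes tested. The list was chosen with earlier results of these data known. SESN3 and TXNIP, which act in redox control, rose from 2.89 ± 0.127 to 18.9 ± 2.14 RPKM and from 10.9 ± 6.18 to 176 ± 34.3 RPKM. The controls lay apart for TXNIP, at 15.3 and 6.54 RPKM. No FOXO protein was measured, and the part of any listed regulator in the differences of BH3-only genes was not tested.

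Genes of the p53 response moved both ways. Of 14 tested, 7 were lower, 4 higher and 3 not called, with a median of -0.43. MDM2, the p53 ligase gene, fell from 95.8 ± 4.41 to 32.2 ± 3.01 RPKM, and the exonuclease gene AEN from 30.2 ± 4.72 to 6.82 ± 1.11 RPKM. The sestrin gene SESN1, which is also on the FOXO list, and TP53INP1 rose from 6.72 ± 1.77 to 47.9 ± 13.2 RPKM and from 7.12 ± 1.91 to 24.1 ± 3.54 RPKM.

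The integrated stress response can induce BBC3, PMAIP1 and BCL2L11 through ATF4 and CHOP. Of its 7 tested genes, 4 were higher, 2 lower and 1 not called. DDIT3, the CHOP gene, rose from 12.9 ± 2.05 to 24.4 ± 2.58 RPKM and PPP1R15A, a phosphatase subunit gene, from 9.23 ± 0.0714 to 26.0 ± 4.77 RPKM, while ATF3 fell from 3.95 ± 1.02 to 1.38 ± 0.342 RPKM. ATF4 fell from 193 ± 24.2 to 135 ± 18.8 RPKM, a call that was lost without control replicate 2 (log2 difference -0.39) or TPA replicate 1 (-0.38). The immediate early gene EGR1 rose from 1.32 ± 0.428 to 122 ± 45.4 RPKM, and IRF4, a factor of mature B cells, from 17.2 ± 2.50 to 53.1 ± 7.52 RPKM. TCF3, the gene of the E2A factors of early B cells, fell from 106 ± 10.2 to 42.2 ± 9.41 RPKM. E2F1, MYC and MYB, each a regulator of both growth and death genes, fell. E2F1 went from 59.9 ± 2.46 to 1.46 ± 0.373 RPKM and MYB from 164 ± 2.79 to 39.2 ± 13.1 RPKM. MYC had a log2 difference of -1.09, which was -0.72 without TPA replicate 1. MIR17HG, the host transcript of a microRNA cluster known to target BCL2L11 mRNA, fell from 3.06 ± 0.238 to 1.47 ± 0.187 RPKM (limma adjusted p = 0.00233). The glucocorticoid receptor gene NR3C1, whose ligand induces BIM in lymphoid cells, did not pass (21.2 ± 1.71 and 24.1 ± 1.38 RPKM). On the hypoxia list 4 were higher with TPA, 3 lower and 5 not called, NDRG1 from 2.63 ± 0.461 to 16.6 ± 1.39 RPKM among those that rose, P4HA1 also rising and PDK1 falling.

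**Figure D5:**
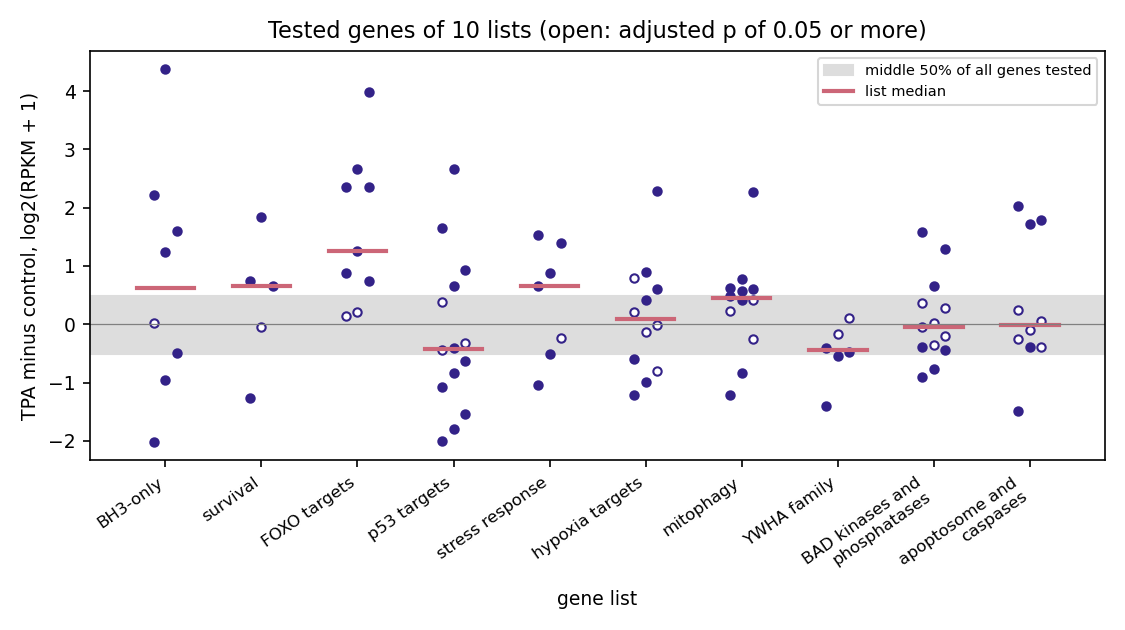
TPA minus control difference on the log2(RPKM + 1) scale for each tested gene of 10 lists, with the list median as a bar and the middle 50% of all genes tested as a grey band. Medians range from -0.44 for the YWHA genes to 1.26 for the FOXO targets, against -0.02 for all genes tested.

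The listed genes most like each member were found by the Euclidean distance between centred log2(RPKM + 1) profiles over the 4 libraries, among 152 other tested genes. Nearest to BCL2L11 were FOXO4 (distance 0.172), BIRC2 (0.210) and PPP1R15A (0.234). Nearest to BID were MYB (0.218), AEN (0.219) and DDB2 (0.259), and to PMAIP1 the cell cycle inhibitor gene CDKN1A (0.204), with FDXR also close (0.244). BBC3 had no close match, with CSF1R at 0.305 and CCNG2 at 0.342. BMF stood farthest from any other gene, 0.791 from TXNIP. BNIP3L was nearest to the glucose transporter gene SLC2A1 (0.236), which had 18.9 and 9.37 RPKM in control and 15.3 and 11.3 RPKM with TPA. EPAS1 (0.324) and KDM3A (0.338) came next. BIK was nearest to OPTN (0.211), with RPS6KA1 also close (0.239). BAD was nearest to ANKRD37 (0.170), with MAPK3 also close (0.190). All distances rest on the same 4 libraries in 2 groups and describe likeness of pattern only.

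Neighbouring genes did not all move with the members. Neighbours were sought only among genes with deposited values, so a closer gene without them would be missed. MIR4435-2HG, the nearest gene to BCL2L11 on one side, was listed at 0 in both controls and at 3.74 and 2.42 RPKM with TPA, while ACOXL on the other side had 0.376 RPKM or less. On either side of BMF, BUB1B fell with a log2 difference of -1.64 and SRP14-AS1 rose with 1.17, or 0.75 without TPA replicate 2. BCL2L13, next to BID, rose from 9.17 ± 0.00990 to 14.6 ± 2.15 RPKM where BID fell. SAE1, next to BBC3, fell with a log2 difference of -0.92, and PLCB3, next to BAD, fell with -0.73. The genes beside PMAIP1, CCBE1 and MC4R, had 0.038 RPKM or less in every library.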

How the data were processed

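RNA of 4 libraries was analysed, grouped by their titles, and the 6 ChIP and input samples of the series were left out. The authors deposited a single table of RPKM values per gene, per the file headers, to 3 decimals and with 1 RefSeq accession per gene. CASAVA 1.8, Bowtie 1.12, TopHat, SAMtools and HOMER on hg19 are listed in the submitters' processing notes, without roles. The use of strand was not given in the sources used here, so values of overlapping genes are uncertain.

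The 12159 genes that reached 1 RPKM in 2 or more libraries were transformed to log2(RPKM + 1) and fitted with limma 3.58.1 in R 4.3.3 as TPA minus control. Variances were moderated along the trend with the mean level (2 residual degrees of freedom, 5.88 from the prior). P-values are two-sided, adjusted by Benjamini-Hochberg over all genes tested. Differences on this scale understate changes of low genes. The fit was checked on simulated data with far fewer changed genes than were called here and no effect shared by replicate number. That check therefore does not cover these features of the data. Absolute depth is unknown, so no counting interval is given. No replicate was a copy of another: of the 1360 genes averaging 50 RPKM or more, 49.5% lay over 10% apart in the control pair and 65.1% in the TPA pair. Figures were drawn with matplotlib 3.10.9.

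The members, the motifs and the 22 gene lists were chosen with earlier results of these data known. The text names all members and the survival, effector, other BH3 and dynein genes. It names the 2 genes of each other list with the smallest p in each direction among those called, and any listed transcription factor. It also names overlapping genes, the nearest neighbours with deposited values and the 3 nearest profiles. Some genes that this rule names are not reported here. CASP8, MTCH2, PPP3R1 and PPP3CC were added after their values were seen. The lists cover other BH3 proteins, survival proteins, effectors, apoptosome and caspases, dynein light chains, YWHA genes, BAD kinases and phosphatases, BIM turnover, BID cleavage, MCL1 and NOXA turnover, regulators, p53, FOXO, hypoxia, mitophagy and stress genes, 4 sets of lineage markers and reference genes. Genes are named with RefSeq symbols in the deposited table, and all 9 members matched the RefSeq gene table by accession, 7 of them with a promoter window. Alternatives were other pseudocounts, filters, scalings, variance models and thresholds, a replicate block, and each library left out.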

Additional observations from a re-analysis of the deposited data

How the results depend on the processing

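Of the 9 members 8 were tested and 7 called, beside 58.2% of all genes tested. Of the 7, BMF and BIK reached the filter only with TPA and so had to differ. Under each of the other settings 6 or 7 members were called. With no filter 9 members were tested and 36% of all genes were called, and with the filter at 5 RPKM 7 members were tested. Counts of all genes called ranged from 5250 (adjusted p under 0.01) to 8234 (replicate block), against 7075, and with 1 library left out from 5470 to 6660. With 1 library left out a group holds 1 library, assumed to vary like the other group. Without either control the prior degrees of freedom became infinite, so those p-values are not on the scale of the others. The replicate number as a block left 7 members called and raised all calls to 8234. It also brought DYNLL1, MTCH2 and BNIP1 past the threshold (adjusted p = 0.00246, 0.00698 and 0.0316, limma). Differences between replicates correlated at 0.361 between the groups over genes, but 2 pairs that share only a number do not establish a pairing. Direction changed for BNIP3L (-0.013 after median-of-ratios scaling, -0.47 to 0.50 with 1 library left out), HUWE1 (-0.14 to 0.38 with 1 left out), SLC2A1 (0.0029 after quantile normalization, -0.49 to 0.45 with 1 left out), EPAS1 (1.39e-04 after quantile normalization, -0.28 to 0.25 with 1 left out) and KDM3A (-0.17 to 0.60 with 1 left out), genes that were not called in the reported fit. The cause was not tested. BCL2 minus BCL2L11 moved from -2.88 to -3.01 with a pseudocount of 0.1, by its construction, and stayed between -2.96 and -2.79 with 1 library left out. MCL1 minus PMAIP1 kept 1.55 to 1.86. At an adjusted p under 0.01 BAD was not called. BIK was not tested with the filter at 5 RPKM.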
